A study of Mus musculus with 8 samples.

Results

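The genes described here build and supply the primary cilium, the single sensory antenna that most kidney epithelial cells carry. They were the genes in the deposited tables named *Ift* or *Bbs* with a number, *Mks1*, *Tctn1*, *Tctn2* and *Tctn3*, together with further ciliopathy genes chosen by name. They were chosen by symbol, with no threshold on a measured value. It gave 45 genes of the 24063 symbols in the tables, and all 45 passed the filter on low counts. RNA-seq had been run on 8 cultures of mouse tubuloids, 3D structures that form in Matrigel from pieces of kidney tubule, here of mice at postnatal day 7-10. Control cultures 3, 7, 14 and 21 received growth factor medium alone. GDNF cultures 6, 12, 17 and 22 had GDNF added for 24 h after plating and were then returned to that medium, and both groups were extracted on day 7. GDNF (glial cell line-derived neurotrophic factor) signals through the receptor Ret and drives branching of the ureteric bud in the developing kidney. All 8 cultures carried the alleles Pkd2fl/fl, Pax8rtTA, TetOCre and mTmG, in which the *Pax8* promoter directs doxycycline-dependent Cre to kidney epithelium. The labels give no doxycycline treatment for any of these cultures, and the starting material was a mixture of tubule segments. Whether cultures of 1 group came from different animals was not given in the sources used here, so p-values measure the spread between these cultures.

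A primary cilium grows from a mother centriole and is kept up by intraflagellar transport (IFT). In IFT the IFT-B complex travels towards the tip with kinesin-2, and the IFT-A complex travels back with dynein-2 and admits membrane proteins. The BBSome, the complex lost in Bardet-Biedl syndrome, carries membrane proteins out of the cilium. The transition zone at the base is a gate built of MKS and NPHP modules, and the inversin compartment lies just beyond it. Recessive loss of many of these genes gives cystic kidneys, as in nephronophthisis, Joubert syndrome and Meckel syndrome, and the polycystins altered in dominant polycystic kidney disease reside in the same organelle.

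Several of these genes are known targets of RFX transcription factors, which bind an inverted repeat called the X-box, so their promoters are shown here to place the measured RNA beside the sequence in front of it. RefSeq promoters of build GRCm38.p6, from 250 bases before to 50 bases after the annotated start, were matched for 38 of the 45 genes. Those with no match included *Anks6*, *Ift122*, *Ift80*, *Ift81* and *Tmem67*. An X-box on either strand was found in 6 of the 38 genes (15.8%), against 1.95% of the 11928 tested genes with a promoter in the same table. The half-site GTTGCC, which also lies inside some X-boxes, was present on either strand in 16 of the 38 (42.1%), against 14.9%. The motif of NRF1, a factor at many CpG-rich promoters, was present on either strand in 5 of the 38 (13.2%), against 9.83%. These letter matches are descriptions of the windows and not measured binding. The X-boxes, in capitals within a short stretch of each promoter written 5′ to 3′ on the strand of the gene, were as follows.
Bbs1 (chr19:4906605-4906634, minus strand): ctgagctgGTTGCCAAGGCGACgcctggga
Tctn3 (chr19:40612339-40612391, minus strand): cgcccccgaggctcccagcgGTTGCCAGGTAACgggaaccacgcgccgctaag
Tctn1 (chr5:122264411-122264432, minus strand): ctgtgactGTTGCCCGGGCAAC
Tctn2 (chr5:124598667-124598720, plus strand): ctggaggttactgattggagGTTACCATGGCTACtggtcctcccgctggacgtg
Ahi1 (chr10:20952560-20952589, plus strand): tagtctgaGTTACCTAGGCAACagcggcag
Ift57 (chr16:49699187-49699266, plus strand): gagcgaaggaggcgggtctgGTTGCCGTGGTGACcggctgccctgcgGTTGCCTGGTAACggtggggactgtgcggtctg

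The X-box of *Tctn3* began 140 bases before the annotated start, that of *Tctn2* 62 bases before it, and *Ift57* held a pair beginning 87 and 60 bases before it. In *Bbs1*, *Ahi1* and *Tctn1* the match lay after the annotated start, 1, 21 and 36 bases in. All 3 tectonic genes and *Ahi1*, 4 of the 10 MKS module genes here, held an X-box, and *Tmem67* among the 10 had no matched promoter to search. Of the 6 genes, 5 had a positive log2 fold change between GDNF and control cultures and *Ift57* had a negative one. The change was positive in 32 of all 45 cilium genes and in 52.5% of all genes tested. A link between the X-box and the change was not tested. The half-site without a full X-box was found in another 10 genes, *Mks1*, *Ift88*, *Nphp4*, *Ift140*, *Ift172*, *Ift27*, *Bbs5*, *Bbs7*, *Arl13b* and *Wdr35*.

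The libraries were deep, with 72991721 to 97490625 counts each, and a cilium gene had between 291 and 11304 counts in a culture. Control culture 3 stood apart. Transcripts in the shortest quartile of length took 41.4% of its counts, against 29.4% to 36.1% in the other controls and 25.7% to 30.4% in the GDNF cultures, and its TMM composition factor was 0.790 against 0.963 to 0.982 in the other controls and 1.07 to 1.11 in the GDNF cultures. Marker genes of kidney epithelium summed to 348 to 3145 TPM (a level corrected for library size and transcript length) in controls and 869 to 1245 TPM in GDNF cultures, so the labelled tissue was present in all 8. Stromal markers summed to 358 to 1782 and 448 to 1587 TPM. The epithelial and stromal sums therefore overlapped between the groups. In such bulk samples fewer cells of a type and less RNA per cell cannot be told apart.

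On the TPM scale the cilium genes spanned a wide range in control cultures. The highest levels were those of IFT genes. *Ift20*, an IFT-B subunit that also works at the Golgi in sorting membrane proteins to the cilium, was highest at 198 ± 31.0 TPM (SD, n = 4), followed by the IFT-A subunit *Ift43* at 89.8 ± 8.25 TPM and the small GTPase-like *Ift22* at 40.8 ± 4.29 TPM, and on this scale these levels were separated by more than their spread. *Ift52*, *Ift27* and *Tmem216* came next at 32.4 ± 3.28, 32.1 ± 3.30 and 28.0 ± 2.82 TPM and were not separated beyond their SD. The lowest were *Bbs1* at 1.14 ± 0.198 TPM, *Nphp4* at 1.41 ± 0.243 TPM and *Rpgrip1l* at 2.08 ± 0.369 TPM. In all, 14 genes reached 10 TPM in controls and 23 lay under 5 TPM. These levels are of the transcript with the highest count. Of the 14 genes with several listed transcripts, 11 listed a further transcript whose count came to 90% or more of the leading one. Reads had thus been counted for several transcripts at once, and a sum over transcripts changes the order. Summed, *Ift43* was at 183 TPM, within the spread of *Ift20*, and *Tmem216* at 82.6 TPM, above *Ift22*. The counts, CPM values and shares below are such sums per gene, and so hold some reads more than once.

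**Figure D1:**
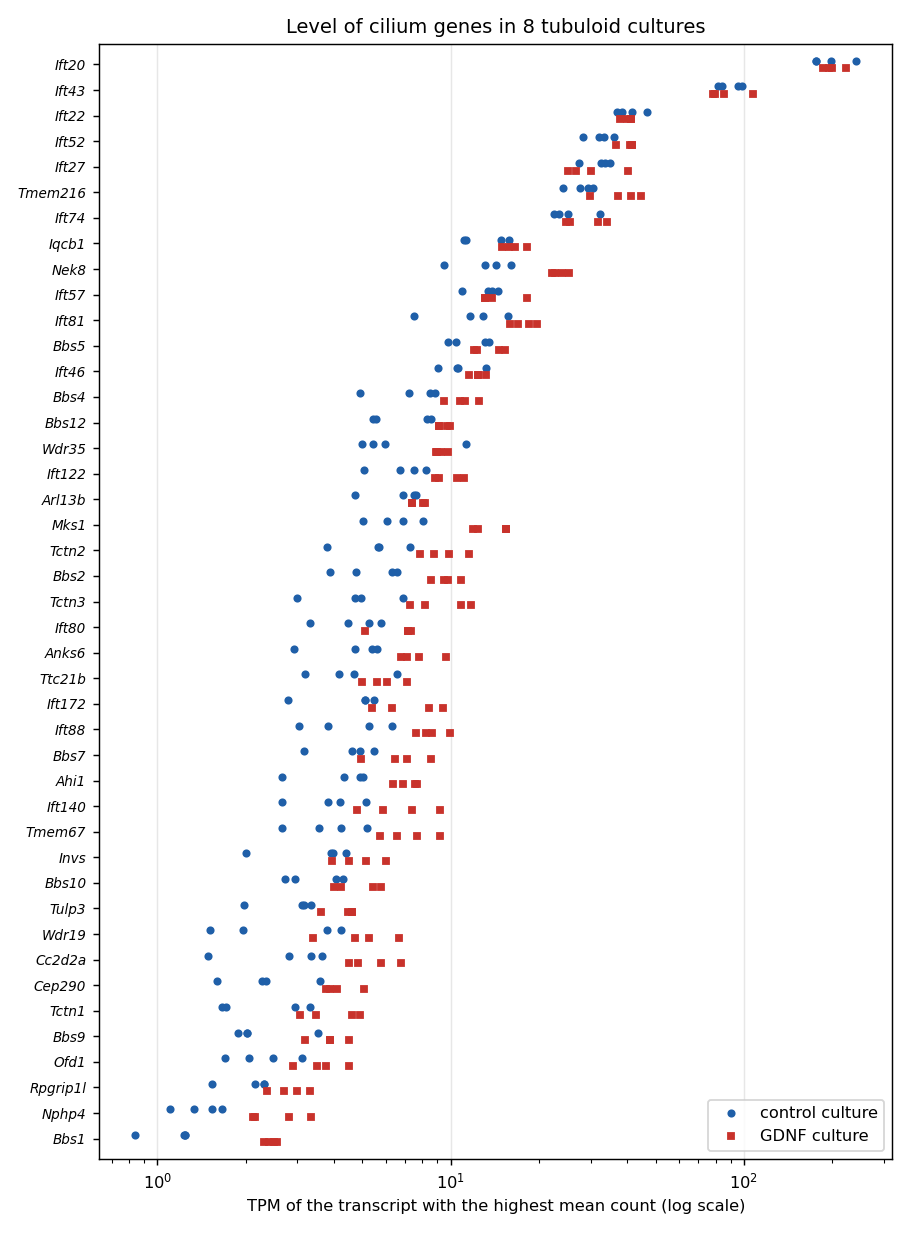
Level of 43 of the cilium genes in TPM (log scale) in 4 control cultures (blue circles) and 4 GDNF cultures (red squares), with genes ordered by their control mean. *Ift20* at 198 TPM and *Bbs1* at 1.14 TPM mark the ends of the control range. Mean TPM was higher in GDNF cultures for 40 of the 43, and the share of all genes on this scale was not computed. TPM carries no composition factors. In the fit with library size only, which has none either, 39 of the 45 genes were positive and the median log2 fold change of all genes was 0.25. In the edgeR fit with TMM factors, 32 of the 45 genes had a positive log2 fold change, against 52.5% of all genes.

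The comparison of GDNF with control cultures asks how ciliary genes stood several days after the pulse. No cilium gene passed an adjusted p of 0.05 in the edgeR quasi-likelihood test with Benjamini-Hochberg adjustment, and neither did any other gene (0.0% of 16557). The smallest adjusted p among them was 0.167. At an unadjusted p of 0.05, 9 of the 45 genes were higher in GDNF cultures, against 9.25% of all genes tested, and 2 were lower, against 12.9%. The 9 were *Bbs1*, *Mks1*, *Nek8*, *Cc2d2a*, *Tctn3*, *Bbs2*, *Tmem67*, *Ift88* and *Nphp4*, and the 2 were *Ift20* and *Ift22*. In 8 genes every GDNF culture lay above every control (6.99% of all genes), and in 1 gene every GDNF culture lay below (6.26%). DESeq2, run as an alternative, called *Bbs1*, *Mks1* and *Nek8* higher at adjusted p of 0.0140, 0.0332 and 0.0400, among 1.37% of genes that it called higher.

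Most of the estimates were above 0. The log2 fold change was positive for 32 of the 45 genes, against 52.5% of all genes, with a median of 0.20 against 0.033 for all genes tested. How far the set stood above zero depended on the scale. As a share of all counts, the cilium genes took 0.0909% to 0.104% in controls and 0.110% to 0.125% in GDNF cultures, with no overlap. In CPM (counts scaled to library size) with TMM factors, which set the bulk of genes level between cultures, their sum was 1020 to 1151 in controls and 1026 to 1166 in GDNF cultures, and the groups overlapped. All CPM values below carry the TMM factors and are compared only within a gene. Log2 fold changes below are from the edgeR fit, GDNF minus control, with their standard error.

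**Figure D2:**
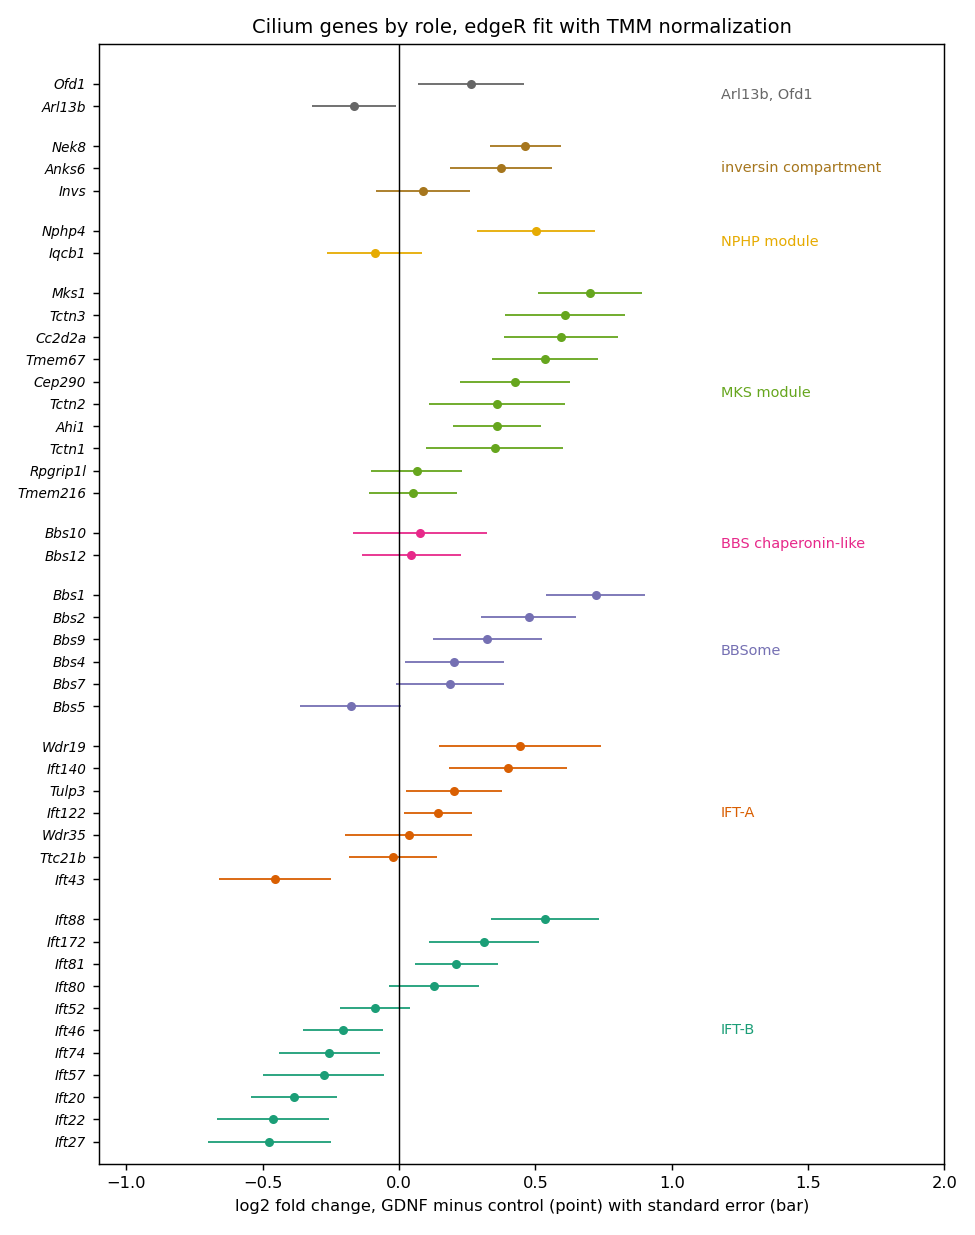
Log2 fold change (GDNF minus control, edgeR with TMM factors) of 43 of the cilium genes, grouped by role and coloured by group, with bars for the standard error. All 10 MKS module genes of the named set lie right of 0, and 7 of the 11 IFT-B genes of the set lie left of it. Of all genes tested, 52.5% had a positive estimate.

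The MKS module genes of the gate that the named set holds all had positive estimates. These 10 had a median of 0.39, and 4 of them, *Mks1*, *Cc2d2a*, *Tctn3* and *Tmem67*, were at an unadjusted p under 0.05. Of all genes tested, 52.5% were positive and 9.25% were higher at that p. These 10 genes had a median transcript length of 3839 nt. Of the 7134 genes over 3000 nt, 5067 were positive and 1101 were higher at that p. The set does not hold every gate gene. Of 12 tested transition zone genes outside it, 2 were positive and 10 negative, and their median transcript length was 1596 nt. The negative ones included *B9d1*, *B9d2*, *Tmem231*, *Tmem107*, *Tmem17* and *Tmem237*, at −0.52, −0.63, −0.11, −0.38, −0.51 and −0.19. *Mks1* (chr11:87853182-87863803), which encodes a B9-domain protein of the gate and is mutated in Meckel syndrome, was at 10.2, 11.9, 10.2 and 8.28 CPM in control cultures 3, 7, 14 and 21 and at 19.6, 18.3, 14.1 and 13.8 CPM in GDNF cultures 6, 12, 17 and 22. Every GDNF culture was above every control, with cultures 6 and 12 the highest. This was a log2 fold change of 0.70 ± 0.19 (edgeR unadjusted p = 0.0042, Benjamini-Hochberg adjusted p = 0.167).

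*Cc2d2a*, a C2-domain scaffold of the gate, was at 6.95, 12.4, 9.56 and 10.5 CPM in the controls and 13.1, 13.2, 15.8 and 17.4 CPM in the GDNF cultures. The groups did not overlap, but control culture 7 came close to GDNF cultures 6 and 12. edgeR estimated a log2 fold change of 0.59 ± 0.21 (edgeR, Benjamini-Hochberg adjusted p = 0.170). For *Tctn3*, a tectonic of the gate with an X-box in its promoter, the controls were at 6.99, 8.01, 8.37 and 10.8 CPM and the GDNF cultures at 15.9, 11.2, 9.95 and 15.2 CPM. GDNF culture 17 lay below control culture 21, so the groups overlapped. Its log2 fold change was 0.61 ± 0.22 (edgeR, Benjamini-Hochberg adjusted p = 0.176).

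*Tmem67*, which encodes meckelin, a receptor-like membrane protein of the gate, was at 16.4, 18.9, 16.0 and 21.7 CPM in controls and 35.6, 23.6, 20.6 and 26.1 CPM in GDNF cultures. GDNF culture 6 was far above the rest and GDNF culture 17 was below control culture 21. Its estimate was 0.54 ± 0.20 (edgeR, Benjamini-Hochberg adjusted p = 0.178). The exons of *Tmem67* share 289 nt with *Rbm12b2* on the opposite strand, and the counting was not stated to use strand, so reads of the pair cannot be told apart there.

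*Rpgrip1l*, whose product anchors the module and which had the third lowest level of all, was at 9.21, 10.1, 9.36 and 9.36 CPM in controls and 8.82, 11.6, 10.4 and 8.89 CPM in GDNF cultures. The GDNF cultures lay on both sides of the controls. The estimate was 0.065 ± 0.17 in log2 fold change. Of the remaining members, *Cep290*, a scaffold linking microtubules and membrane, was at 0.43 ± 0.20, *Tctn1* at 0.35 ± 0.25, *Tctn2* at 0.36 ± 0.25, *Ahi1* at 0.36 ± 0.16 and *Tmem216* at 0.053 ± 0.16 on the log2 fold change scale. *Ahi1*, the Joubert syndrome gene encoding jouberin, was the only one of these 5 in which every GDNF culture exceeded every control. *Tctn1* shares 1574 nt of exon with *Hvcn1*, *Cep290* 881 nt with *4930430F08Rik* and *Tmem216* 169 nt with *Cpsf7*, each on the opposite strand.

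The inversin compartment genes *Nek8*, *Anks6* and *Invs* also had positive estimates. *Nek8* (chr11:78166106-78176695), a kinase mutated in nephronophthisis and in the jck mouse with cystic kidneys, was at 22.7, 22.8, 24.8 and 26.0 CPM in controls and 36, 35.6, 31.8 and 29.4 CPM in GDNF cultures. The control values were tightly grouped and the groups did not overlap. Its log2 fold change of 0.46 ± 0.13 had the smallest standard error among the genes described so far (edgeR unadjusted p = 0.0055, Benjamini-Hochberg adjusted p = 0.167).

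*Anks6*, an activator of Nek8, was at a log2 fold change of 0.37 ± 0.19 with no overlap between groups, and *Invs*, the inversin gene itself, was at 0.088 ± 0.17. *Invs* shares 226 nt of exon with *Tex10* on the opposite strand.

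In the NPHP module *Nphp4* and *Iqcb1* had estimates of opposite sign. *Nphp4*, a scaffold of the gate with one of the lowest levels, was at 4.75, 4.18, 4.80 and 4.82 CPM in controls and 5.79, 7.05, 8.39 and 5.05 CPM in GDNF cultures. Every GDNF culture was above every control, although GDNF culture 22 only slightly so. The log2 fold change was 0.50 ± 0.22 (edgeR unadjusted p = 0.0428, Benjamini-Hochberg adjusted p = 0.214). *Iqcb1* (NPHP5), a partner of Cep290, was at −0.090 ± 0.17.

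The BBSome genes of the named set leaned upwards, with 5 of 6 positive and a median log2 fold change of 0.26. The subunit genes *Ttc8* and *Bbip1*, which lie outside the set, were both negative, at −0.12 and −0.47. *Bbs1* (chr19:4886878-4906653) encodes the subunit most often mutated in Bardet-Biedl syndrome, and its X-box is printed above. It was at 4.03, 4.33, 4.28 and 4.01 CPM in controls and 7.21, 7.16, 6.99 and 6.11 CPM in GDNF cultures. The controls differed by only 4.01% (coefficient of variation, the smallest of the 45 genes), and all GDNF cultures lay well above them. The log2 fold change of 0.72 ± 0.18 was the largest of the 45 genes (edgeR unadjusted p = 0.0026, Benjamini-Hochberg adjusted p = 0.167).

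*Bbs2*, a core subunit, was at 9.83, 11.6, 8.74 and 11.2 CPM in controls and 17.2, 14, 12.7 and 13.7 CPM in GDNF cultures. The groups did not overlap. A log2 fold change of 0.48 ± 0.17 was estimated (edgeR, Benjamini-Hochberg adjusted p = 0.178). *Bbs9*, *Bbs4* and *Bbs7* were at 0.32 ± 0.20, 0.20 ± 0.18 and 0.19 ± 0.20, and *Bbs5* was at −0.18 ± 0.18. The pair of chaperonin-like genes, whose products help assemble the BBSome, had values near 0. *Bbs10* was at 6.94, 6.99, 7.38 and 4.33 CPM in controls and 8.52, 7.47, 5.52 and 5.52 CPM in GDNF cultures, with GDNF cultures 6 and 12 above all controls and the other GDNF cultures among them, and a log2 fold change of 0.077 ± 0.24, and *Bbs12* was at 0.045 ± 0.18. *Bbs4* shares 194 nt of exon with *Adpgk* and *Bbs12* 32 nt with *Cetn4*, both on the opposite strand.

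**Figure D3:**
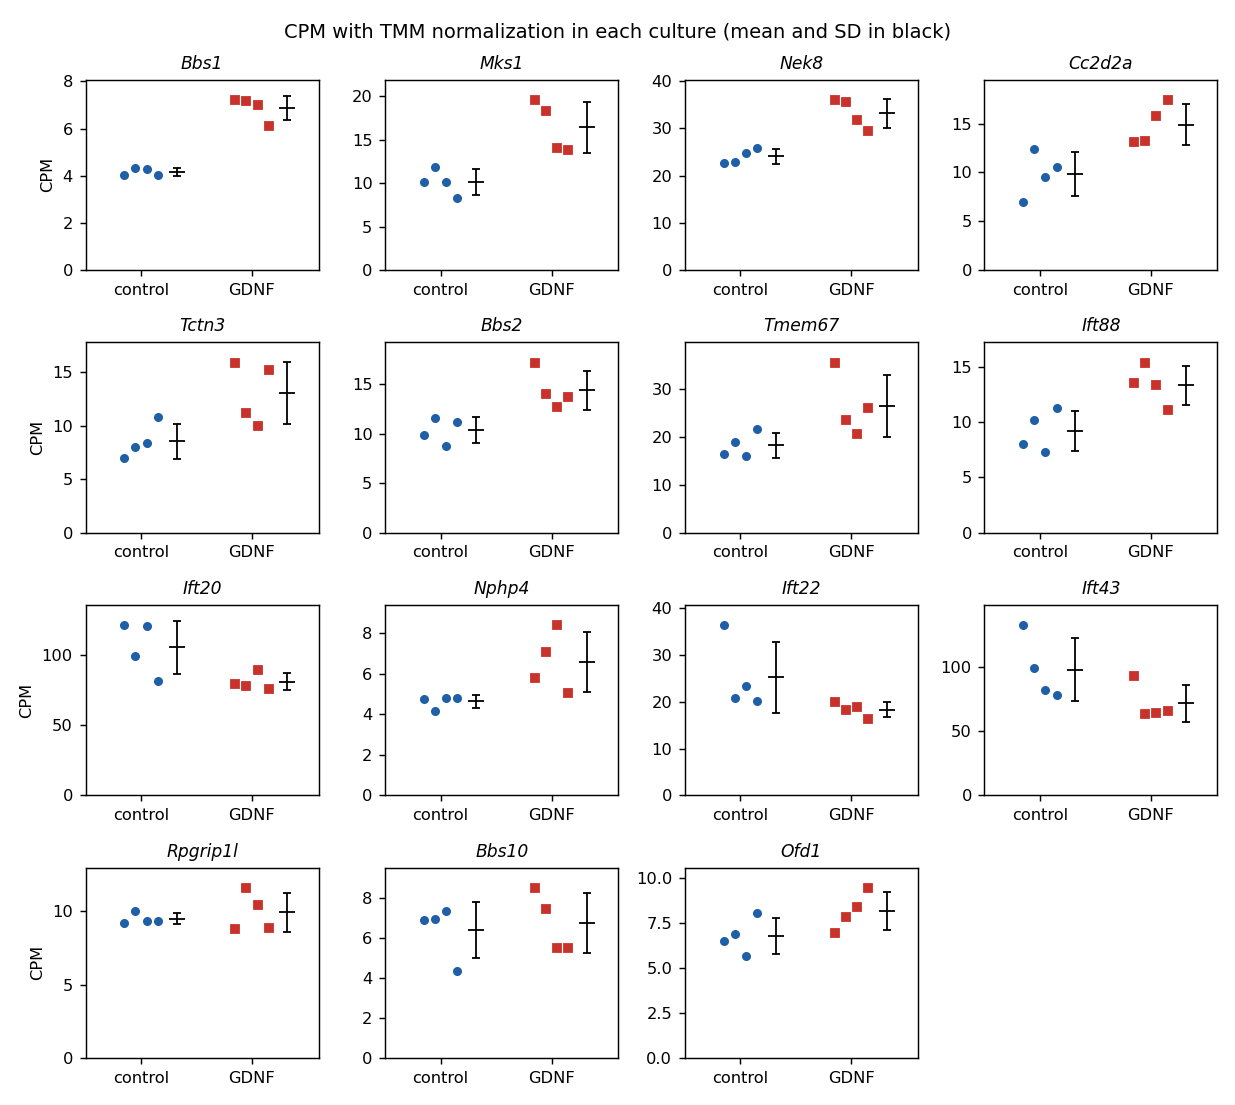
CPM with TMM factors in each culture for 15 cilium genes, with control cultures as blue circles and GDNF cultures as red squares, and the group mean with its SD in black. *Bbs1*, *Mks1* and *Nek8* show no overlap, while *Ift20*, *Ift22* and *Ift43* are highest in control culture 3.

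The IFT-B transport genes were split. Of the 11, 4 were positive and 7 negative, with a median log2 fold change of −0.20. *Ift88* (polaris), the gene altered in the orpk mouse with cystic kidneys, was at 8.02, 10.2, 7.33 and 11.3 CPM in controls and 13.5, 15.4, 13.3 and 11.1 CPM in GDNF cultures. GDNF culture 22 was just under control culture 21, and the other GDNF cultures were above all controls. This gave a log2 fold change of 0.54 ± 0.20 (edgeR, Benjamini-Hochberg adjusted p = 0.179). *Ift172*, *Ift81* and *Ift80* were at 0.31 ± 0.20, 0.21 ± 0.15 and 0.13 ± 0.16.

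On the negative side, *Ift20* (chr11:78536361-78541732) was at 121, 99.2, 121 and 81.4 CPM in controls and 79.8, 78.3, 89.7 and 75.9 CPM in GDNF cultures. Control culture 21 lay among the GDNF cultures and the other controls lay above them. The log2 fold change was −0.38 ± 0.16 (edgeR unadjusted p = 0.0343, Benjamini-Hochberg adjusted p = 0.200). *Ift22* was at 36.4, 20.9, 23.5 and 20.2 CPM in controls and 20.1, 18.2, 18.8 and 16.3 CPM in GDNF cultures. All GDNF cultures were below all controls, but control culture 3 alone was far above the rest. Its log2 fold change was −0.46 ± 0.20 (edgeR unadjusted p = 0.0475, Benjamini-Hochberg adjusted p = 0.222), and without control culture 3 it was −0.23 and that of *Ift20* was −0.31, with neither at an unadjusted p of 0.05. *Ift27*, a small GTPase that links IFT-B to the BBSome, had the lowest estimate of the 45 at −0.48 ± 0.23, and *Ift57*, *Ift74*, *Ift46* and *Ift52* were between −0.28 and −0.089.

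Among the IFT-A genes and their adapter *Tulp3*, 5 of 7 were positive, with a median log2 fold change of 0.14 and none at an unadjusted p of 0.05. *Ift43*, the smallest subunit gene, was at 133, 99.0, 82.1 and 78.6 CPM in controls and 93.3, 63.4, 64.4 and 65.5 CPM in GDNF cultures. GDNF culture 6 lay among the controls and the other 3 below them. Its log2 fold change was −0.45 ± 0.20 (edgeR unadjusted p = 0.0514, Benjamini-Hochberg adjusted p = 0.229). *Wdr19* (IFT144) was at 0.44 ± 0.30 with the widest control spread of the 45 genes, a coefficient of variation of 37.5%, and *Ift140*, mutated in cystic and skeletal ciliopathies, was at 0.40 ± 0.22. *Tulp3*, which carries membrane receptors onto IFT-A, *Ift122*, *Wdr35* (IFT121) and *Ttc21b* (IFT139) were at 0.20 ± 0.18, 0.14 ± 0.12, 0.036 ± 0.23 and −0.022 ± 0.16.

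The remaining members were *Ofd1*, a centriole and centriolar satellite gene, and *Arl13b*, the small GTPase of the ciliary membrane. *Ofd1* was at 6.51, 6.90, 5.68 and 8.05 CPM in controls and 6.93, 7.81, 8.40 and 9.45 CPM in GDNF cultures. The ranges overlapped, with GDNF culture 22 the highest. Its log2 fold change was 0.26 ± 0.19, and *Arl13b* was at −0.17 ± 0.15. *Ofd1* shares 131 nt of exon with *Trappc2* on the opposite strand.

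Transcript length moved with these estimates. Over the 45 genes, log2 length and log2 fold change had a Pearson correlation of 0.64 (Spearman 0.55), against 0.21 (Spearman 0.38) over all 16557 genes tested, where the points are genes of the same 8 libraries and not replicates. These correlations cover unlike length ranges. The shortest cilium transcript has 802 nt, while all genes include a bin of 828 with a median of 121 nt and a median log2 fold change of 0.11. From the bin at 780 nt to that at 8913 nt, the median of all genes went from −0.48 to 0.43. The 6 cilium genes with a transcript under 1500 nt, *Ift20*, *Ift22*, *Ift27*, *Ift43*, *Bbs5* and *Tmem216*, had a median log2 fold change of −0.42, against −0.32 for the 3606 genes of that length. The 15 genes of 1500 to 3000 nt had a median of 0.19, against −0.10 for all genes of that length, and the 24 longer genes had 0.34 against 0.21. In 4 of the 6 short genes control culture 3 was the highest of all cultures.

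When the length trend of each culture was entered as an offset, the low estimates of the short IFT genes shrank and those of several long genes did too. *Ift20*, *Ift22*, *Ift43* and *Ift27* moved to −0.079, −0.15, −0.14 and −0.21, and the count at an unadjusted p of 0.05 became 0 lower, against 12% of all genes. The count higher was 8, against 5.62%. It held *Bbs1*, *Mks1*, *Nek8*, *Tctn3*, *Bbs2*, *Tmem67* and *Ift88* as before and *Tmem216*, and no longer *Cc2d2a* or *Nphp4*. *Mks1* was at 0.72, *Tctn3* at 0.60, *Ift88* at 0.49, *Bbs2*, *Tmem67*, *Nek8* and *Bbs1* each at 0.44, and *Tmem216* at 0.31. *Rpgrip1l*, with a transcript of 6969 nt, went to −0.30. The median over the 45 genes fell to 0.068, against −0.034 for all genes. By role it was 0.33 for the MKS module with 9 of 10 positive, 0.22 for the BBSome, −0.019 for IFT-A and −0.079 for IFT-B. Of all 16557 genes tested, 7672 were positive with the offset. Without control culture 3, 8 genes were higher (5.86% of all genes) and 0 lower (8.18%) at an unadjusted p of 0.05, and *Nphp4* was the one that left the count of 9, with a log2 fold change of 0.51 in place of 0.50 (edgeR unadjusted p = 0.0564). The cause of the length trend was not tested.

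**Figure D4:**
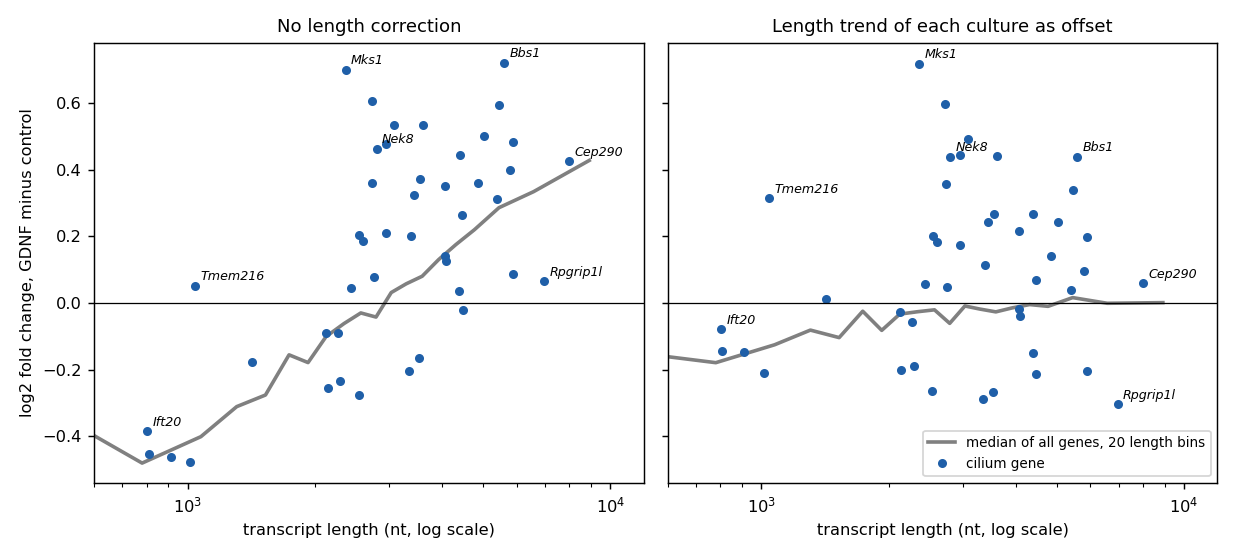
Log2 fold change (GDNF minus control) of the cilium genes (blue) against the length of their transcript (log scale), beside the median of all genes in length bins (grey line), without correction on the left and with the length trend of each culture as an offset on the right. On the left *Ift20* (802 nt) lies at −0.38, somewhat above the grey line, which is at −0.48 at 780 nt. On the right *Ift20* lies at −0.079 while *Mks1* is at 0.72.

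Other ciliary genes were read from lists around the same organelle. The motors were mixed, with 6 of 12 positive. *Dync2h1*, the dynein-2 heavy chain with a very long transcript, was at 16.1 ± 4.12 CPM in controls and 25.1 ± 2.84 CPM in GDNF cultures, a log2 fold change of 0.63 that became 0.17 with the length offset. *Kif3b*, a kinesin-2 motor subunit, was at 0.54 (0.25 with the offset). *Dynlrb1*, a dynein light chain also used by cytoplasmic dynein, was at 702 ± 170 CPM in controls and 466 ± 32.9 CPM in GDNF cultures, a log2 fold change of −0.59 (−0.29 with the offset).

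Subunits and helpers of IFT-B and the BBSome outside the named set leaned the other way. Of 15 tested, 12 were negative, the median log2 fold change was −0.47, and 8 were lower at an unadjusted p of 0.05, all with control culture 3 as the highest culture. The share of all genes was 12.9%. With the length offset 8 were lower (12% of all genes), with *Lztfl1* in place of *Hspb11*, and without control culture 3 there were 3 (8.18%), namely *Rab8a*, *Arl6* and *Mkks*. *Rab8a*, a GTPase of vesicle delivery to the cilium, was at −0.63, *Arl6* (BBS3), which brings the BBSome to the membrane, at −0.59 and *Mkks* (BBS6), a chaperonin-like gene, at −0.50. With the offset they lay between −0.57 and −0.40, and without control culture 3 they were at −0.46, −0.41 and −0.31. Among 12 further transition zone genes 10 were negative with a median of −0.17. Of these *B9d2*, a partner of Mks1 in the gate, was at −0.63, *Cspp1* at 0.50 and *Rpgrip1* at 0.61. With the offset they were at −0.34, 0.33 and 0.37, and no gene of that list was at an unadjusted p of 0.05.

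Genes of the distal appendages and of the first steps of assembly were positive in 12 of 12, with a median log2 fold change of 0.40, and 6 were higher at an unadjusted p of 0.05, against 9.25% of all genes. Most of these genes have a transcript over 3000 nt, and of the 7134 genes of that length 5067 were positive and 1101 were higher at that p. *Ccp110*, a cap protein of the centriole that has to leave before a cilium can grow, was at 12.05 to 16.7 CPM in controls and 20.4 to 25.2 CPM in GDNF cultures, with no overlap and a log2 fold change of 0.63. *Fbf1*, a distal appendage gene, was at 0.59 and *Pcm1*, the scaffold of centriolar satellites, at 0.57. With the length offset the values were 0.40, 0.32 and 0.18, the median 0.19 and the count higher 3 (5.62% of all genes), namely *Ccp110*, *Fbf1* and *Cep89*. In the disassembly list 4 of 8 were positive, with *Tchp* at 0.51 and *Aurka*, the mitotic kinase that triggers cilium loss, at −0.61.

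Of the transcription factors with ciliary targets, 7 of 8 tested were positive, against 52.5% of all genes tested. Their median transcript length was 4044.5 nt, and of the 7134 genes over 3000 nt 5067 were positive. The median log2 fold change of the 8 was 0.44, and 0.22 with the length offset. *Rfx1*, a factor that binds the X-box, was at 7.59 ± 1.61 CPM in controls and 11.2 ± 1.15 CPM in GDNF cultures. Control culture 7 was at 9.02 and GDNF culture 22 at 9.60, so the groups did not overlap. Its log2 fold change was 0.56, and 0.40 with the offset (edgeR unadjusted p = 0.0562 with the offset). *Glis3*, a kidney cilium-associated factor, was at 0.80 (0.67 with the offset). Of the motile cilium genes, 10 of 14 were under 1 TPM in every culture, and *Rsph9* was the highest at 6.71 to 14.1 TPM. Their sum was 15.3 to 19.98 TPM in controls and 18.4 to 29.0 TPM in GDNF cultures. *Ccdc39* had a log2 fold change of 0.52. *Ccdc40* was at 0.178 to 0.443 CPM in controls and 0.367 to 0.830 CPM in GDNF cultures, and *Dnah9* at 0.0277 to 0.139 and 0.0898 to 0.607 CPM, so both overlapped. Of the multiciliated cell markers, *Mcidas*, *Dnah5* and *Dnah9* were below 1 TPM in every culture and *Gmnc* was at 0 in all, while *Foxj1* was at 0.313 to 1.84 TPM, *Rsph1* at 0.601 to 2.08 TPM and *Ccdc39* at 1.69 to 6.32 TPM over the 8 cultures. Hedgehog genes, whose signalling needs the cilium, were positive in 9 of 14, with *Kif7* at 0.80 (0.58 with the offset), *Dhh* at −1.95 (−1.01 without control culture 3) with control cultures 3 and 21 far above the rest. *Gli1*, a pathway target, was at 0.0138 to 0.167 CPM in controls and 0.161 to 0.289 CPM in GDNF cultures. None of the genes named from these lists passed an edgeR adjusted p of 0.05 with Benjamini-Hochberg adjustment.

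**Figure D5:**
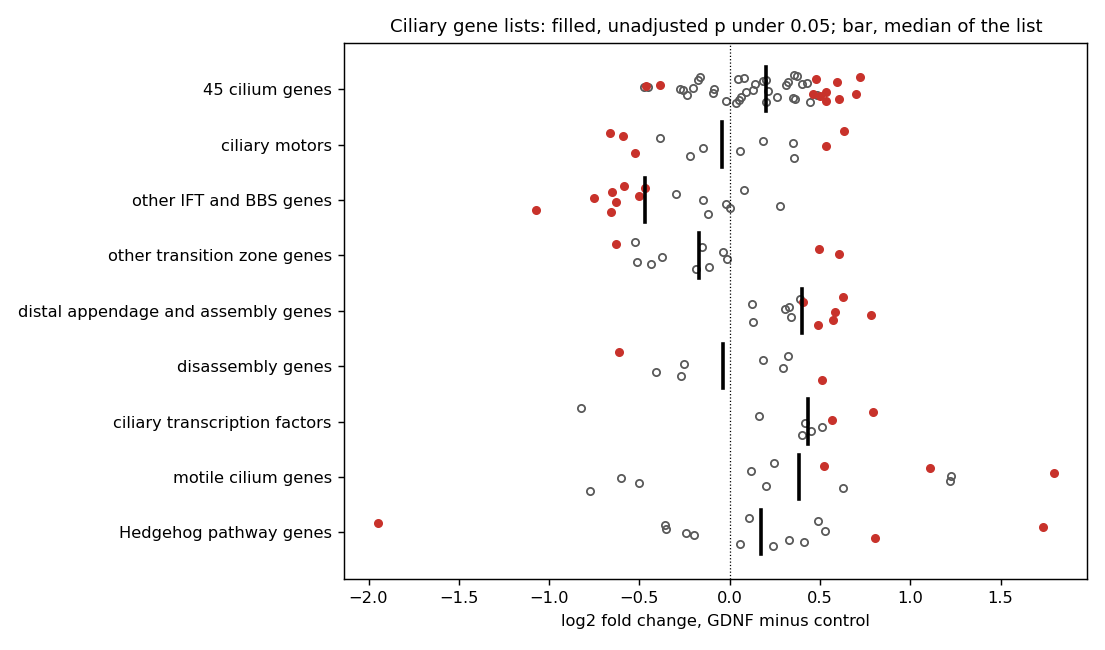
Log2 fold change (GDNF minus control) of every tested gene in the set of 45 cilium genes and in 8 other ciliary lists, with filled red points for an unadjusted edgeR p under 0.05 and a black bar for the list median. The distal appendage and assembly genes all lie right of 0 with a median of 0.40, and the other IFT and BBS genes lie mostly left of it with a median of −0.47.

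Markers that could accompany ciliation were also read. Cycling cell markers summed to 196 to 290 TPM in controls and 187 to 231 TPM in GDNF cultures. Within that list *Cdk1* was at 105 ± 21.4 CPM in controls and 64.6 ± 8.03 CPM in GDNF cultures and *Pcna* at 83.5 ± 16.5 and 56.0 ± 5.01 CPM, with log2 fold changes of −0.70 and −0.58, while *Mki67* was at 0.49. With the length offset the 3 values were −0.72, −0.33 and 0.072. Proximal tubule markers summed to 4.07 to 8.84 TPM in controls and 9.71 to 12.5 TPM in GDNF cultures, without overlap. This was nearly all 1 gene, *Slc5a2*, at 3.75 to 8.37 TPM in controls and 9.23 to 12.2 TPM in GDNF cultures. The other 4 of 5, *Lrp2*, *Cubn*, *Slc34a1* and *Aqp1*, were under 1 TPM in every culture. In CPM with TMM factors *Slc5a2* overlapped between groups, with control culture 14 at 11.8 and GDNF culture 6 at 11.2. Collecting duct markers summed to 257 to 1676 and 501 to 740 TPM, with *Aqp2* under 1 TPM in every culture. The part of any of these in the values of the cilium genes was not tested.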

How the data were processed

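RNA was made into poly(A)-selected libraries by the SMART-Seq v4 low-input method, which copies whole transcripts. The submitters' processing notes name STAR, featureCounts and DESeq2 and builds mm10 and GRCm38, and versions and strand settings were not given in the sources used here. The authors deposited, per transcript and culture, a raw read count, an FPKM and a TPM. The deposited FPKM values served only to recover transcript length. Counts were summed per symbol, filtered with filterByExpr and tested over all 16557 genes with edgeR 4.0.16 (TMM, quasi-likelihood, no covariate, Benjamini-Hochberg, threshold 0.05) in R 4.3.3, where the SE is the absolute log2 fold change over the square root of F. Alternatives used DESeq2 1.42.0, limma 3.58.1, other factors, filters and offsets, a term for *Xist* or Y-linked RNA, and each culture left out in turn. The sequencing lane of each culture was not given in the sources used here. The genes given per culture were those at an unadjusted p of 0.05, the 3 highest and 3 lowest control levels and the largest change in each role. Up to 3 genes of each other ciliary list were named at that p, by smallest p. Further gate and BBSome genes of these lists were named after their values were seen. Marker genes were given by level, and *Cdk1*, *Pcna*, *Mki67* and *Slc5a2* were named after their values were seen. Results for 2 of the genes are not reported here. The members and lists were chosen with earlier results of these data known.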

Additional observations from a re-analysis of the deposited data

Results flagged for a closer look

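In 7 of 90 gene and group combinations with 4 cultures each, 1 culture lay far from the other 3 by Dixon's criterion, and chance gives about 1 in 20. *Ift43* was at 93.3 CPM in GDNF culture 6 against 63.4 to 65.5 CPM in the other GDNF cultures. *Ift57* was at 24.7 CPM in the same culture against 16.6 to 16.7 CPM. *Anks6* was at 17.2 CPM in GDNF culture 12 against 12.6 to 13.1 CPM. Among controls, *Ift172* was at 12.9 CPM in culture 3 against 17.2 CPM in each of the others. *Bbs10* was at 4.33 CPM in control culture 21 against 6.94 to 7.38 CPM, and *Cep290* was at 16.6 CPM there against 11.0 to 11.7 CPM. *Nphp4* was at 4.18 CPM in control culture 7 against 4.75 to 4.82 CPM.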

How the results depend on the processing

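No paired analysis was run, because the groups share no culture numbers and the labels give no pairing. Control culture 3 and GDNF culture 6 held both *Xist* and Y-linked RNA. Control culture 7 and GDNF culture 12 held *Xist* without Y-linked RNA. The other cultures of both groups held Y-linked RNA with little or no *Xist*. Whether control and GDNF cultures came from shared preparations was not tested. The call at an adjusted p of 0.05 stayed at 0 genes in the edgeR and limma alternatives, and DESeq2 called 3. With library size only, which shifted the median of all genes to 0.25, 17 cilium genes were higher (19.9% of all genes) and 0 lower (5.13%) at an unadjusted p of 0.05 and their median log2 fold change was 0.41. The count lower, 2 genes, was 4 in DESeq2, 1 when a mean of 5 CPM was required and 0 with the length offset. It ranged from 0 to 5 with 1 culture left out (0 without control culture 3 or GDNF culture 12 or 22, 1 without control culture 14 or GDNF culture 17, 5 without control culture 21). The median was 0.068 with the length offset and 0.14 to 0.19 with 1 culture left out. Across the 19 alternatives 30 of the 45 genes kept 1 sign (24 positive, 6 negative). Signs turned with library size only for *Ift46* (0.020), *Arl13b* (0.045), *Bbs5* (0.044), *Ift52* (0.14), *Iqcb1* (0.13) and *Ttc21b* (0.19), and with the length offset for *Rpgrip1l* (−0.30), *Ift122* (−0.019), *Bbs5* (0.012), *Ift80* (−0.039), *Invs* (−0.20) and *Wdr35* (−0.15). *Ttc21b* was also at 0.0080 with upper-quartile factors and 0.014 when a mean of 5 CPM was required. With 1 culture left out, the values ranged from −0.019 to 0.12 for *Rpgrip1l*, −0.12 to 0.16 for *Bbs10*, −0.028 to 0.18 for *Invs*, −0.067 to 0.16 for *Tmem216*, −0.15 to 0.12 for *Bbs12*, −0.11 to 0.23 for *Wdr35* and −0.089 to 0.068 for *Ttc21b*. The cause of these shifts was not tested.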
